A study of Mus musculus with 6 samples.

Results

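Genes of the basement membrane and of the receptors that hold cells to it were examined in whole mouse retina at postnatal day 8. The set is a fixed list of 41 genes, 13 collagens, 8 laminins, 8 nidogens, proteoglycans and other matrix genes, 9 integrin and dystroglycan genes and 3 genes of matrix proteases and their inhibitor, and its members were taken by gene symbol and not by their values. Of the 41, 30 had an expressed probe, that is, a probe with a detection p under 0.05 against negative control beads on at least 3 of the 6 arrays. Across the array, 11097 of 19057 genes with a probe were expressed by the same rule. The 3 mice labelled Lrp5-/- came from the line B6.129P2-Lrp5tm1Dgen/J, a knockout carried in every cell, and the 3 wild type (WT) mice were C57BL/6J, a separate stock. Genotype therefore cannot be told apart from other differences between the lines. Of the 41 members 0 lie on chromosome 19, which carries Lrp5. Each array held retinal RNA of 1 mouse. Lrp5 is a co-receptor that works with Frizzled4 to carry the signal of Norrin, a Wnt-type ligand that the growing retinal vessels need.

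The basement membrane is a thin sheet of matrix on which vessels, glia and neuroepithelium rest. Laminin heterotrimers of an alpha, a beta and a gamma chain and a network of type IV collagen form its layers, nidogens and the proteoglycan perlecan link these, and agrin and collagen XVIII are held in the sheet. Integrins and dystroglycan on the cell surface bind laminin and other matrix proteins, and matrix metalloproteinases cut the sheet where a vessel sprouts. In the retina such sheets lie beneath the endothelium of each vessel and at the inner limiting membrane, where the end feet of Müller glia meet the vitreous, so that more than a single cell type feeds the transcripts described here.

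WT replicate 1 stood apart from the other arrays. Before normalization its mean signal lay below the 303.8 to 430.7 of the other 5 arrays, and 18167 probes were detected on it, against 20286 to 21388. The label of the mutant was checked with Lrp5 itself. The expressed probe of Lrp5 had normalized signals of 99.2, 91.3 and 95.7 in the retinas labelled Lrp5-/-, against 46.8, 59.5 and 56.1 in WT retinas, where it was detected on 1 of 3 arrays (log2 fold change 0.82, with a standard error of 0.11 and an adjusted p = 0.0127). The signal of this probe was thus not lower in the retinas labelled Lrp5-/-, and whether the allele is null was not tested. The position of the probe relative to the deleted part is not known here, a probe outside that part checks nothing, and the 3 other probes of Lrp5 were detected on no array, so the groups are called by their labels. Markers of the neural retina were present, with 9 of 10 Müller glia, 8 of 10 rod and 5 of 8 ganglion cell markers expressed.

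Col18a1, the core protein of collagen XVIII and the source of the vessel-inhibiting fragment endostatin, was the 1 member that changed past the threshold, and it was lower in the retinas labelled Lrp5-/-. Col4a2, a chain of the main vascular type IV collagen, and Nid2, a linker of laminin and type IV collagen, came next, with every array labelled Lrp5-/- below every WT array but without passing the adjusted threshold. No member was higher by that test. Every other expressed member lay between -0.23 and 0.22 on the log2 scale. A log2 fold change here is the mean log2 normalized signal of the retinas labelled Lrp5-/- minus that of WT retinas, from limma, with p-values adjusted over all 20721 expressed probes and 1 probe per gene. At an adjusted p under 0.05, 1 of 30 expressed members was lower and 0 were higher, against 0.144% and 0.0451% of all expressed genes. At an unadjusted p under 0.05 the members gave 3 lower and 0 higher, where the whole array gave 2.94% lower and 2.08% higher.

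The groups did not overlap for 7 of the 30 expressed members, and in all 7 the retinas labelled Lrp5-/- were lower, whereas 5.7% of all genes were lower and 5.15% higher without overlap. These 7 were Col18a1, Col4a2, Lamc1, Nid2, Hspg2, Itgb5 and Itgb1. The log2 fold change was negative for 24 members and positive for 6, where 53% of all expressed genes were negative. The median of the members was -0.07, beside a median of -0.01 over all 11097 expressed genes. With WT replicate 1 left out, 20 of 30 members were negative, against 49.5% of all genes. On the 5 arrays 10 members did not overlap lower and 1 higher, and all genes gave 13.1% lower and 12.4% higher. The plot of fold changes by class shows this layout.

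**Figure D1:**
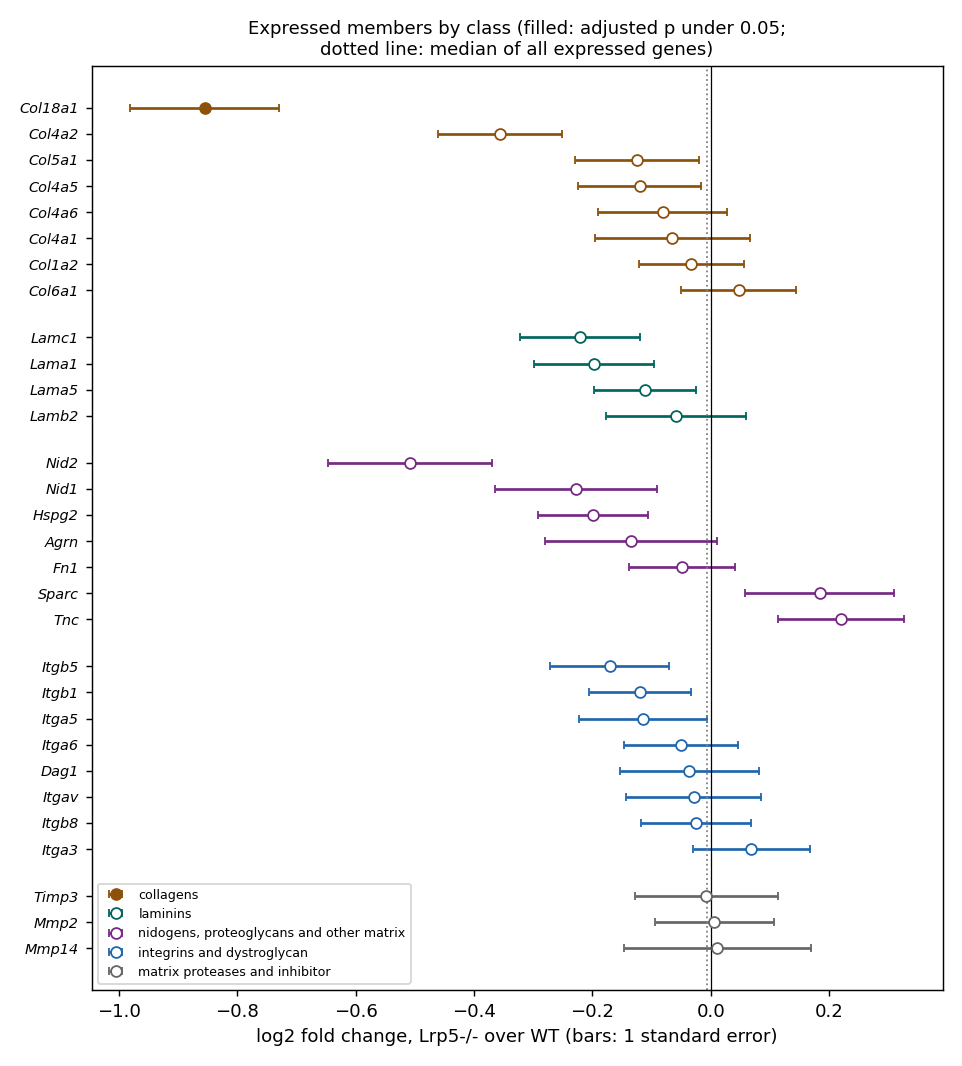
Log2 fold changes of the 30 expressed members, retinas labelled Lrp5-/- over WT (horizontal axis), by class and in order within a class, with bars of 1 standard error. Only Col18a1 (-0.85) is filled as past an adjusted p of 0.05, the next are Nid2 (-0.51) and Col4a2 (-0.36), and the dotted line is the median of all expressed genes.

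Of the 13 collagens, 8 were expressed, 7 of these had a negative and 1 a positive log2 fold change, and the median was -0.10. Col18a1 had normalized signals of 804.9, 680.3 and 688.0 in the retinas labelled Lrp5-/-, against 1576.1, 1219.0 and 1159.8 in WT retinas. The highest array labelled Lrp5-/- was below the lowest WT array. The means were 724 ± 69.8 in the retinas labelled Lrp5-/- and 1318 ± 225 in WT retinas (SD, n = 3 mice each). Its level was 1.81-fold lower, or -0.85 on the log2 scale (SE 0.13, limma adjusted p = 0.0314). The gene is also among those the study listed as changed on these same arrays, so the call is not independent of that list. Leaving out any of 5 arrays ended the call. The limma adjusted p was 0.0648, 0.273 and 0.268 without retinas labelled Lrp5-/- 1, 2 and 3. It was 0.104 without WT replicate 2 and 0.0571 without WT replicate 3, while without WT replicate 1 it was 0.0109. The log2 fold change stayed between -0.94 and -0.72 with any 1 array left out.

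A second expressed probe of Col18a1 read near background. It had signals of 62.6, 63.5 and 57.8 in the retinas labelled Lrp5-/-, against 67.5, 69.2 and 63.9 in WT retinas, and was detected on 2 of 3 arrays of each group. Here too no array labelled Lrp5-/- reached the lowest WT array, but the log2 fold change was only -0.13 (adjusted p = 0.987). Which transcripts either probe reads is not known here.

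Col18a1 is transcribed from more than a single promoter, which give products with different amino ends, and its windows are shown because it is the gene that changed. RefSeq (GRCm38.p6) places 2 starts on the minus strand of chromosome 10, at chr10:77166481-77166780 (GC 63.3%) and chr10:77113656-77113955 (GC 59.7%). Each window holds 250 bases before the start and 50 from it, and capitals mark the first 50 transcribed bases.
Col18a1 upstream start: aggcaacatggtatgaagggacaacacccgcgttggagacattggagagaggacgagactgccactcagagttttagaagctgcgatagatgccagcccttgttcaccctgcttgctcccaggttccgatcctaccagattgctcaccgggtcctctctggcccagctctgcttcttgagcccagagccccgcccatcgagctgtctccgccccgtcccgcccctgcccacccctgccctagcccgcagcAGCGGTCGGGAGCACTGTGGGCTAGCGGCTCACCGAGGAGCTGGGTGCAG
Col18a1 downstream start: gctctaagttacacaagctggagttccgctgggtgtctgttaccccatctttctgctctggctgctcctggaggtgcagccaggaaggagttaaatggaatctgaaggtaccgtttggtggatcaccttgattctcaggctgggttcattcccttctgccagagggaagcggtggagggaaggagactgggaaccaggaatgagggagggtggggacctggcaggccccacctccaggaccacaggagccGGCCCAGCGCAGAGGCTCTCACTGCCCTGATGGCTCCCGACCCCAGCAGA
Both windows were searched on both strands for CTTTGA and CTTTGT, which differ in their last letter and are bound by TCF and LEF, the DNA-binding partners of beta-catenin. Neither motif was found in them. Among all 32851 RefSeq windows of this length CTTTGA occurred in 5257 (16%) and CTTTGT in 6147 (18.7%), and among 36 windows of 31 members each occurred in 5. These matches are letters only, and the array does not say which start was used.

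Col4a1 and Col4a2 encode the chains that join as a heterotrimer in nearly all basement membranes, vascular ones included. They lie head to head on chromosome 8. Their windows are shown because both genes start from this shared stretch of DNA. The Col4a1 window is chr8:11312777-11313076 (minus strand, GC 74.0%) and the Col4a2 window is chr8:11312555-11312854 (plus strand, GC 73.7%), beside a median GC of 52.7% over all windows. Capitals mark the 78 bases that both windows hold, each read on its own strand.
Col4a1: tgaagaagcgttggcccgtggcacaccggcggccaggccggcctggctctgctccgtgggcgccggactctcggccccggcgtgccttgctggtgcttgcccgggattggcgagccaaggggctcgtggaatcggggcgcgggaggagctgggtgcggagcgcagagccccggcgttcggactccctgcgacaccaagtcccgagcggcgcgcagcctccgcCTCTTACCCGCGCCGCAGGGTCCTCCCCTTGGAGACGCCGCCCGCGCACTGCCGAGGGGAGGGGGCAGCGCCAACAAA
Col4a2: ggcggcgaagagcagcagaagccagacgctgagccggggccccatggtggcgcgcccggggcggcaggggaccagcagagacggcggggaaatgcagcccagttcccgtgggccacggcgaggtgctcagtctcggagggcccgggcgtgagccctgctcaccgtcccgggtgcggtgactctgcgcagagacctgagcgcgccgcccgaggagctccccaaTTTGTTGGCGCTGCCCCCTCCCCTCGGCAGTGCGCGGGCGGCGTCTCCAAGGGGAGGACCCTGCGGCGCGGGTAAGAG
Neither window held CTTTGA or CTTTGT.

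Col4a1 did not separate the groups. It read 593.7, 603.2 and 529.7 in the retinas labelled Lrp5-/-, against 482.5, 667.1 and 675.0 in WT retinas, where replicate 1 was the lowest of all 6 arrays (log2 fold change -0.07, with a standard error of 0.13 and an adjusted p = 0.990). Col4a2 did separate them, with 316.0, 292.4 and 266.9 in the retinas labelled Lrp5-/-, against 412.7, 339.8 and 368.3 in WT retinas. The means were 292 ± 24.6 in the retinas labelled Lrp5-/- and 374 ± 36.7 in WT retinas (SD, n = 3 each). Its log2 fold change was -0.36 (standard error 0.10), short of the threshold (adjusted p = 0.699), and stayed between -0.42 and -0.28 with any 1 array left out. Within each array, the log2 signal of Col4a2 minus that of Col4a1 was -0.91, -1.04 and -0.99 in the retinas labelled Lrp5-/-, against -0.23, -0.97 and -0.87 in WT retinas. WT replicate 1 lay apart from the other 5 arrays, and the groups differed by -0.29 (two-sided exact permutation p = 0.2, where 3 mice against 3 cannot go below 0.1).

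**Figure D2:**
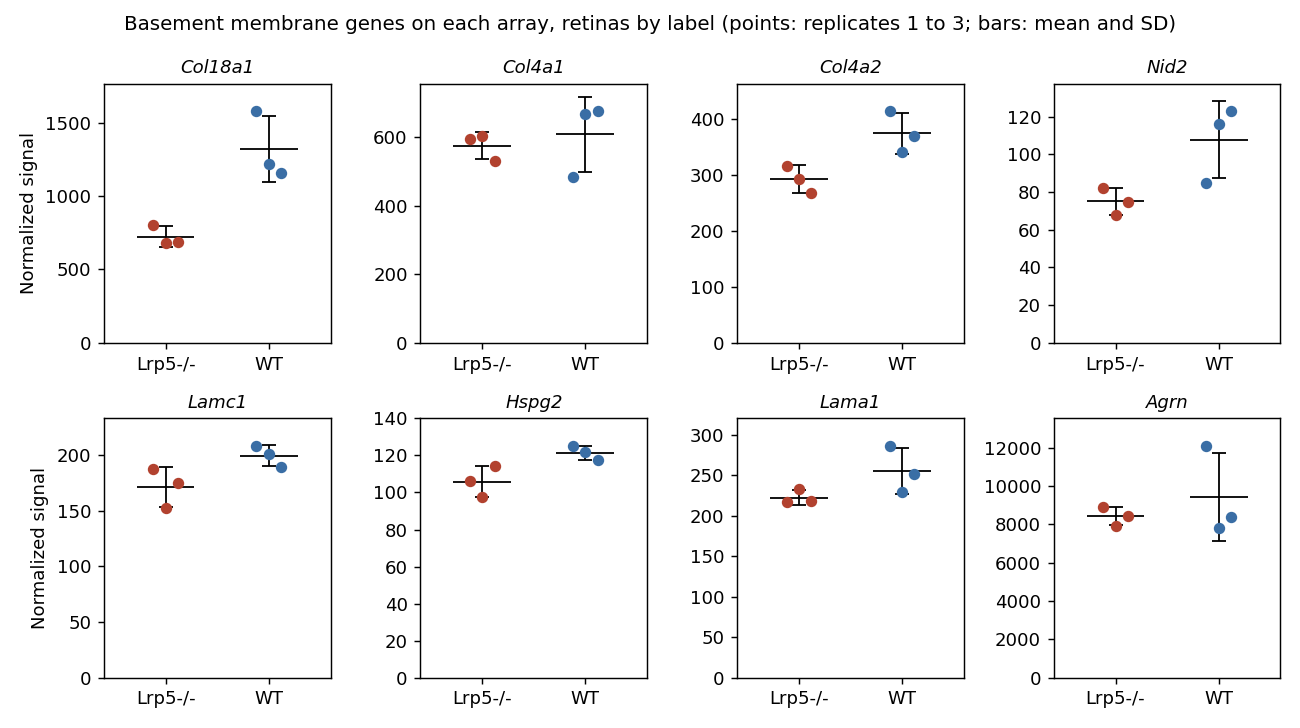
Normalized signal (vertical axis, from 0) of 8 members in the retinas labelled Lrp5-/- (left in each panel) and in WT retinas (right), with replicates 1 to 3 as points and the mean and SD as bars. Col18a1 lies between 680.3 and 804.9 in the retinas labelled Lrp5-/- and at or above 1159.8 in WT retinas. Col4a2, Nid2, Lamc1 and Hspg2 also do not overlap. WT replicate 1 is the highest array for Col18a1, Col4a2, Lamc1, Hspg2, Lama1 and Agrn and the lowest for Col4a1.

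The other type IV chains gave lower signals against background or none above it. Col4a5, whose loss causes X-linked Alport syndrome in people, gave 132.2, 142.2 and 159.0 in the retinas labelled Lrp5-/-, against 167.5, 160.9 and 142.3 in WT retinas (log2 fold change of -0.12, adjusted p = 0.987). Its second expressed probe pointed the other way by a small amount, with 89.2, 90.2 and 83.6 in the retinas labelled Lrp5-/-, against 72.7, 97.7 and 91.3 in WT retinas (0.02). The groups overlapped for both probes, so no direction holds for Col4a5. Col4a6, its head-to-head neighbour on chromosome X with starts 1343 bases apart, had a log2 fold change of -0.08 and was detected on 1 of 3 arrays labelled Lrp5-/- and 2 of 3 WT arrays. Col4a3 and Col4a4, the chains that pair with Col4a5 in the glomerulus, had no expressed probe.

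Interstitial collagens differed little. Col5a1, a regulator of fibril width, had a log2 fold change of -0.12, Col1a2, a chain of the main fibril of connective tissue, -0.03, and Col6a1, a chain of the beaded filaments beside basement membranes, 0.05 with both of its expressed probes. None passed the threshold (adjusted p at least 0.987) and the groups overlapped for all 3. Col1a1, Col3a1 and Col15a1, a close relative of Col18a1 in vessel walls, were not expressed by the detection rule.

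Of 8 laminins 4 were expressed, all with a negative log2 fold change (median -0.15) and none past the threshold. Lama1, the alpha chain of laminin-111 and a main chain of the inner limiting membrane, had signals of 216.4, 232.6 and 217.7 in the retinas labelled Lrp5-/-, against 286.0, 229.6 and 251.9 in WT retinas (log2 fold change -0.20, with a standard error of 0.10 and an adjusted p = 0.987). Of the arrays labelled Lrp5-/-, replicate 2 alone crossed the lowest WT array. Lamc1, the gamma chain shared by most laminins, had 187.8, 152.1 and 174.7 in the retinas labelled Lrp5-/-, against 207.9, 200.6 and 189.4 in WT retinas, with no overlap (log2 fold change -0.22, with a standard error of 0.10 and an adjusted p = 0.987). Its other expressed probe overlapped and gave -0.14. Lama5, the alpha chain of mature vessels, had a log2 fold change of -0.11 and Lamb2, the beta chain of synapses and mature basement membranes, one of -0.06. Lama4, the alpha chain that marks endothelium, had no expressed probe, nor did Lama2, Lamb1 and Lamc3.

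Among the other matrix genes, 7 of 8 were expressed, 5 negative and 2 positive, with a median of -0.14 and none past the threshold. The nidogens, which bridge laminin to type IV collagen, were the lower end. Nid2 had signals of 82.1, 67.9 and 74.9 in the retinas labelled Lrp5-/-, against 84.5, 115.9 and 122.7 in WT retinas. WT replicate 1 sat just above the highest array labelled Lrp5-/-, and the other WT arrays lay well above both. Nid2 averaged 75.0 ± 7.10 in the retinas labelled Lrp5-/- and 108 ± 20.4 in WT retinas (SD, n = 3 each). The difference was -0.51 on the log2 scale (SE 0.14, limma adjusted p = 0.564). Without WT replicate 1 it was -0.67, past the threshold (adjusted p = 0.0143), and with any other array left out it did not pass.

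Nid1 was also negative, but its groups overlapped. The arrays gave 83.9, 80.1 and 72.0 in the retinas labelled Lrp5-/-, against 76.7, 88.5 and 114.5 in WT retinas (log2 fold change -0.23, with a standard error of 0.14 and an adjusted p = 0.987). Nid2 minus Nid1 within an array differed by -0.28 on the log2 scale between the retinas labelled Lrp5-/- and WT retinas (two-sided exact permutation p = 0.1, the smallest this design allows). Hspg2, which encodes perlecan, the heparan sulfate proteoglycan of vessel walls, had 106.0, 97.5 and 114.2 in the retinas labelled Lrp5-/-, against 125.0, 121.6 and 117.6 in WT retinas. The groups did not overlap and differed by -0.20 on the log2 scale (SE 0.09, limma adjusted p = 0.987), and its other expressed probe overlapped (-0.17).

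Agrn, the proteoglycan agrin of the inner limiting membrane and of synapses, did not differ beyond its spread. The probe gave 8932.8, 7945.6 and 8455.2 in the retinas labelled Lrp5-/-, against 12090.8, 7836.8 and 8387.9 in WT retinas. WT replicate 1 alone was high, and without it the log2 fold change was 0.06, against -0.14 with all arrays (adjusted p = 0.987). Fn1, which encodes fibronectin, the matrix that astrocytes lay down ahead of growing vessels, had a log2 fold change of -0.05.

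Sparc and Tnc were the members with the largest positive values, and neither passed the threshold. Sparc, a collagen-binding protein that modulates cell adhesion, had 2167.8, 2109.9 and 1870.0 in the retinas labelled Lrp5-/-, against 1510.5, 1820.1 and 2124.1 in WT retinas (log2 fold change 0.18, adjusted p = 0.987). Its other 2 expressed probes gave 0.32 (adjusted p = 0.930) and 0.03, and all 3 probes overlapped between the groups. Tnc, which encodes tenascin-C, an adhesion-modulating glycoprotein, had 313.8, 407.8 and 373.0 in the retinas labelled Lrp5-/-, against 307.1, 318.4 and 309.3 in WT retinas (log2 fold change 0.22, with a standard error of 0.11 and an adjusted p = 0.987). Of the arrays labelled Lrp5-/-, replicates 2 and 3 lay above every WT array and replicate 1 among them, and the second probe of Tnc gave 0.08.

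Receptor genes lay close to 0. Of 9 integrin and dystroglycan genes, 8 were expressed, 7 with a negative log2 fold change, with a median of -0.04 and a range of -0.17 to 0.07. Itgb5, a beta chain that pairs with alpha v to bind vitronectin, had signals of 681.7, 583.3 and 701.7 in the retinas labelled Lrp5-/-, against 787.2, 711.5 and 710.6 in WT retinas. The groups did not overlap, by a narrow margin (log2 fold change -0.17, with a standard error of 0.10 and an adjusted p = 0.987). Itgb1, the beta chain of most laminin and collagen receptors, also did not overlap, at -0.12, from signals close to background (61.6 to 64.4 in the retinas labelled Lrp5-/- and 67.1 to 72.5 in WT retinas).

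Dag1 encodes dystroglycan, the laminin, perlecan and agrin receptor of Müller end feet. It read 700.4, 583.6 and 698.8 in the retinas labelled Lrp5-/-, against 622.3, 632.1 and 783.6 in WT retinas (log2 fold change of -0.04), and a second probe had 232.0, 239.4 and 249.5 in the retinas labelled Lrp5-/-, against 261.4, 192.7 and 254.1 in WT retinas (0.04). The 2 probes differed in sign by less than their errors, so no direction holds. Itga5, the fibronectin receptor chain, was at -0.11, Itga6, a laminin receptor chain, at -0.05, Itgav, the vitronectin receptor chain, at -0.03 with both probes, Itgb8, which pairs with alpha v to activate TGF-beta, at -0.03, and Itga3, another laminin receptor chain, at 0.07. All of these overlapped between the groups, with adjusted p-values of at least 0.987. Itga1, a collagen receptor chain, had no expressed probe.

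The proteases and their inhibitor gave a median of 0.01. Mmp14, the membrane-bound collagenase of sprouting tip cells, had signals of 1116.2, 1015.1 and 954.5 in the retinas labelled Lrp5-/-, against 1327.1, 796.3 and 1000.1 in WT retinas (log2 fold change 0.01, standard error 0.16). The WT arrays spanned a wider range than the arrays labelled Lrp5-/- and enclosed them. Mmp2, the type IV collagenase that Mmp14 activates, had 261.4, 299.2 and 286.3 in the retinas labelled Lrp5-/-, against 309.3, 276.0 and 259.1 in WT retinas (log2 fold change 0.01, standard error 0.10). Timp3, an inhibitor of metalloproteinases that is bound to matrix, was at -0.01.

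Of the 11 members with no expressed probe, all 29 probes read between 30.0 and 68.1, beside array medians of 46.9 to 49.2 for probes that were not detected, and 26 of the 29 were detected on no array. The members were Col4a3, Col4a4, Col15a1, Col1a1, Col3a1, Lama2, Lama4, Lamb1, Lamc3, Vcan and Itga1. Low signal of a probe does not show that the transcript is absent. Of the 30 expressed members, 23 were detected on all 6 arrays and 11 had a mean signal under 100. The exceptions to full detection were Col4a6, Col1a2, Itga5, Itga6, Itgav, Itgb1 and Itgb8. Background was not subtracted, so fold changes of such probes are understated.

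Among the members 2 arrays stood out. WT replicate 1 was the highest of the 6 arrays for 19 of the 30 expressed members, against 31.4% of all expressed genes, and the lowest for 5, against 24.8%. Lrp5-/- replicate 2 was the lowest for 12 of the 30, against 14.8% of all genes. The plot of each member on each array shows the high WT replicate 1 for the fibrillar collagens, laminins, Agrn and Mmp14, while Col4a1, Nid1, Nid2 and Sparc were lowest there within WT. The part of this array in the member counts was not tested beyond leaving it out.

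**Figure D3:**
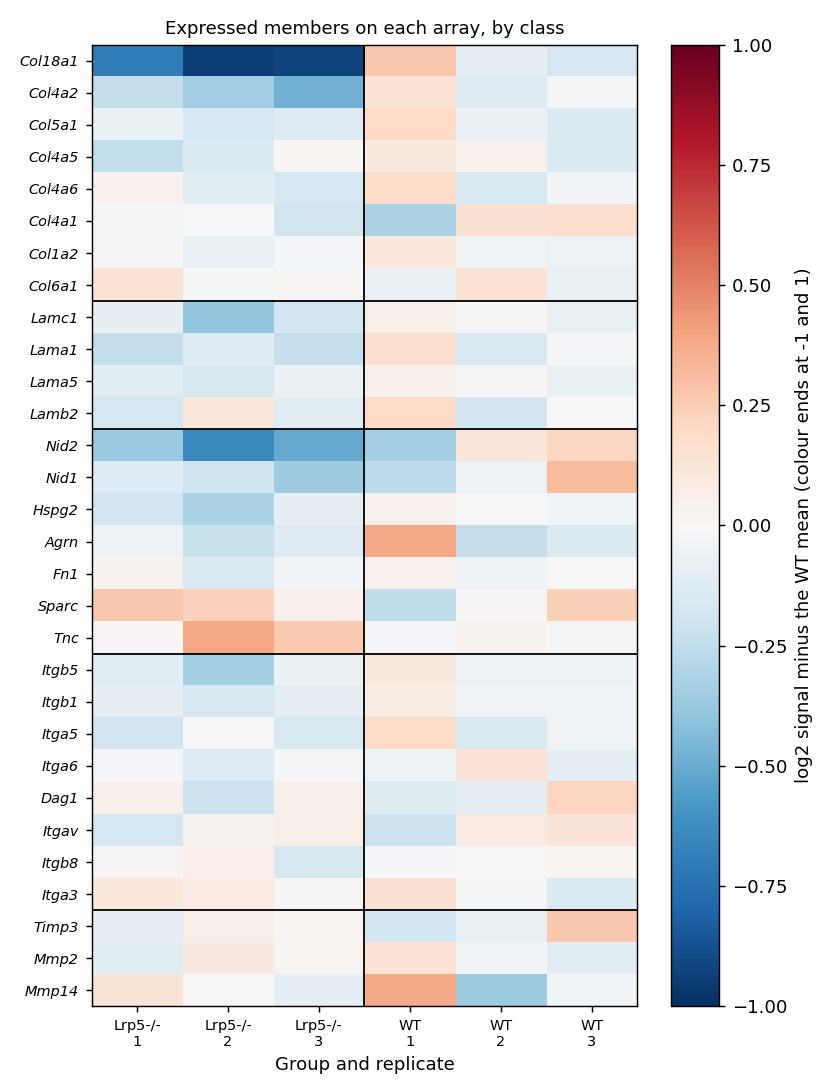
Log2 normalized signal of each expressed member minus its WT mean (colour), on the 3 arrays labelled Lrp5-/- (left) and the 3 WT arrays (right), with black lines between classes. Col18a1 is blue on all 3 arrays labelled Lrp5-/- and close to its mean or above on WT arrays, and the WT replicate 1 column is red for most collagens and laminins and blue for Col4a1, Nid1 and Nid2.

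Most endothelial markers were lower in the same retinas. Of 22 listed, 17 were expressed, 16 with a negative and 1 with a positive log2 fold change (median -0.42). Past the adjusted threshold 3 were lower and 0 higher, against 0.144% and 0.0451% of all expressed genes. The positive marker was Emcn, higher on every array labelled Lrp5-/-. It gave 179.3, 179.5 and 145.4 there, against 141.1, 141.9 and 138.2 in WT retinas (log2 fold change 0.25, limma adjusted p = 0.982). The summed normalized signal of the 17 came to 2377, 2286 and 2080 in the retinas labelled Lrp5-/-, against 3318, 3833 and 4270 in WT retinas, and Tie1, Cd34, Sox17, Erg and Clec14a were not detected by the rule. Cldn5, which encodes the endothelial tight junction protein claudin-5, moved most of them, with 74.8, 86.2 and 70.9 in the retinas labelled Lrp5-/-, against 674.6, 613.7 and 791.5 in WT retinas (log2 fold change -3.16, adjusted p = 3.636e-07). Without it the other 16 summed to 2302, 2200 and 2009 in the retinas labelled Lrp5-/-, against 2643, 3219 and 3479 in WT retinas, still with no overlap. Whole retina was used, so fewer endothelial cells and less RNA per endothelial cell cannot be told apart.

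Col18a1, Col4a1, Col4a2, Nid2 and Lamc1 were taken further. All but Col4a1 are among the members already lower without overlap, so their ratios are not independent of that. These members were set against the mean log2 signal of these 17 genes on the same array. This sets changes side by side, not levels. That mean differed by -0.60 between the groups, and by -0.44 without Cldn5, so each comparison is given with and without this gene, a choice made after its values were seen. Relative to it, Col18a1 was at 2.85, 2.63 and 2.76 in the retinas labelled Lrp5-/-, against 3.41, 2.89 and 2.70 in WT retinas, so that the groups overlapped (difference -0.25, two-sided exact permutation p = 0.4). With Cldn5 left out of the mean it was at 2.82, 2.61 and 2.72 in the retinas labelled Lrp5-/-, against 3.54, 3.01 and 2.84 in WT retinas, lower on every array (difference -0.41, exact permutation p = 0.1, the smallest possible). Whether the groups overlapped for this Col18a1 ratio thus turned on whether 1 gene of the 17, Cldn5, was counted. Several of the 17 read close to background, Kdr averaging 61.5 in the retinas labelled Lrp5-/- and 65.8 in WT retinas. With background not subtracted, their changes are understated, which limits every ratio to this mean. Because this mean fell, a gene that did not change comes out higher against it in the retinas labelled Lrp5-/-. Col4a1 itself changed by -0.07 with overlapping groups, so its ratio mostly restates that fall. Col4a1 was at 2.41, 2.46 and 2.38 in the retinas labelled Lrp5-/-, against 1.70, 2.02 and 1.92 in WT retinas, higher on every array (difference 0.54, exact permutation p = 0.1), and the difference was 0.38 without Cldn5, again with no overlap (exact permutation p = 0.1). The relative difference was 0.25 for Col4a2, 0.10 for Nid2 and 0.38 for Lamc1 (exact permutation p = 0.3, 0.5 and 0.2). Without Cldn5 it was 0.09 for Col4a2, -0.06 for Nid2, which changed sign, and 0.22 for Lamc1 (exact permutation p = 0.6, 0.5 and 0.2). With the comparisons of Col4a2, Col18a1 and Nid2 with their partner genes, 13 such ratios were computed, and this design allows none of them to pass 0.05. Col18a1 minus Col4a1 differed by -0.79 between the groups without overlap (exact permutation p = 0.1).

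The other marker lists were summed in the same way. Müller glia markers summed to 18770, 19470 and 18170 in the retinas labelled Lrp5-/-, against 20120, 16820 and 19700 in WT retinas, with overlap. The sums of rod, ganglion cell and microglia markers also overlapped between the groups. Summed pericyte and smooth muscle markers, 6 of 13 expressed, were 765.2, 793.5 and 689.4 in the retinas labelled Lrp5-/-, against 711.1, 644.7 and 696.3 in WT retinas, with Pdgfrb at background. Acta2, the smooth muscle actin, was higher on every array labelled Lrp5-/-, with 418.5, 426.1 and 348.1 in the retinas labelled Lrp5-/-, against 302.3, 272.8 and 312.5 in WT retinas (log2 fold change 0.42, adjusted p = 0.40). Without it the other 5 summed to 346.7, 367.4 and 341.3 in the retinas labelled Lrp5-/-, against 408.8, 371.9 and 383.8 in WT retinas. That is lower with no overlap, by a narrow margin. The direction of the summed pericyte list thus rested on Acta2. Of the other 5, Rgs5 (-0.26), Abcc9 (-0.20) and Des (-0.28) were negative and Cspg4 (0.14) and Notch3 (0.01) positive. Only Abcc9 did not overlap, and Des read 123.2 on WT replicate 1, against 73.0 and 77.5 on the other WT arrays. Astrocyte markers, 4 of 6 expressed without Pax2 and S100b, were 744.0, 664.3 and 717.1 in the retinas labelled Lrp5-/-, against 852.7, 798.8 and 819.1 in WT retinas, without overlap. Pdgfra, the receptor of retinal astrocytes for platelet-derived growth factor, carried that separation (log2 fold change -0.28, adjusted p = 0.85). The other 3, Gfap, Aldh1l1 and Aqp4, overlapped in sum, at 253.4, 237.9 and 241.2 in the retinas labelled Lrp5-/-, against 242.6, 248.9 and 284.4 in WT retinas. Fibroblast markers, 3 of 9 expressed with Dcn and Lum undetected, were 198.3, 191.6 and 178.1 in the retinas labelled Lrp5-/-, against 191.0, 181.1 and 201.2 in WT retinas. Lens crystallins and pigment epithelium genes varied from array to array within both groups, with lens sums of 219.6, 1180 and 835.8 in the retinas labelled Lrp5-/-, against 905.1, 460.2 and 233.4 in WT retinas, and pigment epithelium sums, with Rpe65 and Tyr undetected, of 1591, 1481 and 3193 in the retinas labelled Lrp5-/-, against 3330, 1425 and 3929 in WT retinas. Lens and pigment epithelium have basement membranes of their own, and their part in the member values was not tested.

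The wider matrix repertoire gave no call. Of 174 further genes listed, 105 were expressed, and 0 passed the adjusted threshold in either direction by limma. At an unadjusted p under 0.05, 9 were lower and 4 higher, against 2.94% and 2.08% of all expressed genes. Without overlap 11 were lower and 5 higher, against 5.7% and 5.15% of all expressed genes. The median log2 fold change was -0.04. The 2 genes with the smallest p are made by endothelium. Vwf, the clotting glycoprotein stored by endothelial cells, had signals of 58.7, 55.2 and 54.6 in the retinas labelled Lrp5-/-, where it was detected on no array, against 83.2, 154.0 and 194.8 in WT retinas, at least 2.24-fold lower against the detection limit of each array (adjusted p = 0.10). Egfl7, an endothelial matrix protein that guides tube formation, had 483.9, 470.1 and 453.9 in the retinas labelled Lrp5-/-, against 772.0, 634.2 and 675.5 in WT retinas (log2 fold change of -0.56, adjusted p = 0.0796). Neither overlapped. Both genes and the adhesion adaptor Vcl (-0.37, adjusted p = 0.30) also stand in the study's own lists from these arrays. The study states a cutoff of p under 0.05 and 1.3-fold by the authors' SAM test, unlike the limma adjusted p used here.

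The remaining lists held values in both directions. Fbln1, a matrix protein that binds nidogen and fibronectin, was at -0.49 (adjusted p = 0.283). Among 17 of 28 further collagens expressed, Col8a2, of the corneal and vascular short-chain collagens, was at -0.48, Col7a1, of anchoring fibrils, at -0.27 and Col26a1 at 0.26. Of laminin-related genes 3 of 7 were expressed. Ntn4, a netrin that binds laminin gamma chains, had 64.1, 63.8 and 63.5 in the retinas labelled Lrp5-/-, against 59.1, 53.6 and 53.0 in WT retinas, where it was detected on no array, so that only a bound could be had. Ntng2 was at -0.33 and Ntng1 at 0.01. Of genes for collagen synthesis and cross-linking 20 of 24 were expressed, with P4ha2, a prolyl hydroxylase subunit, at 0.25, Plod2, a lysyl hydroxylase, at 0.24 and Loxl1, a lysyl oxidase, at -0.25. Further integrins and adaptors gave 16 of 36 expressed, with Itga4 at -0.20 and Sgca at 0.21, and further proteases and inhibitors 15 of 24, with Adamts9 at -0.34, Htra1 at 0.20 and Timp1 at -0.17. Apart from Fbln1, the genes of these lists named here had adjusted p-values of at least 0.443. Not every listed gene had a probe. Those with a probe numbered 25 further collagens, 4 laminin-related genes and 23 genes of collagen synthesis and cross-linking. Among further integrins and adaptors they numbered 34, and among further proteases and inhibitors 20.

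The same arrays were processed in 25 other ways. Col18a1 lost its call with neqc, with scaling to a common median, with non-normalized signals, with 50 added and with no detection filter. It also lost it with the methods' t-test after adjustment and with the mean of its expressed probes, which moved it to -0.49. Col4a2, Nid2 and Lamc1 kept a negative sign in all of them, as the plot of fold changes by processing shows.

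**Figure D4:**
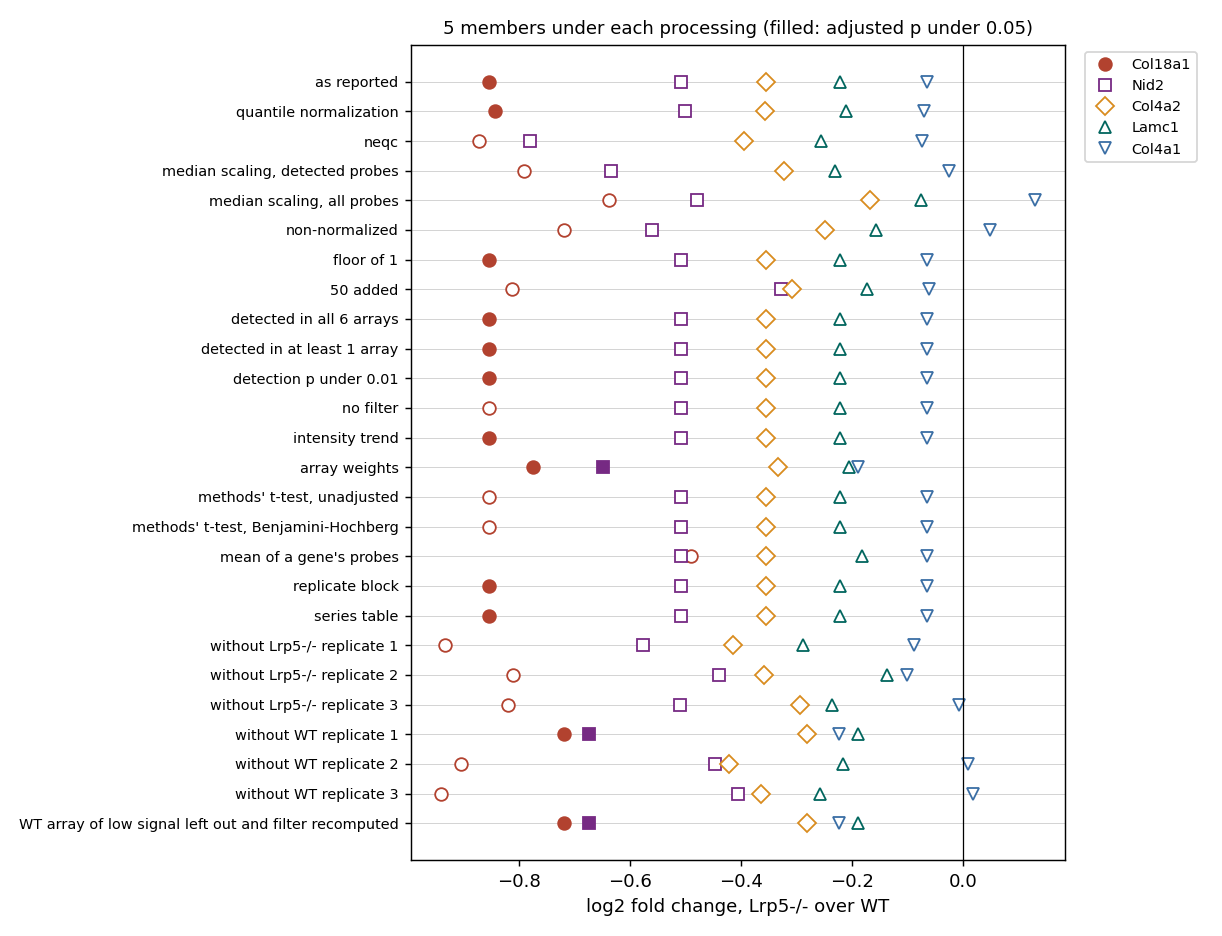
Log2 fold change, retinas labelled Lrp5-/- over WT (horizontal axis), of Col18a1, Nid2, Col4a2, Lamc1 and Col4a1 as reported and under 25 other ways of processing (vertical axis), filled where the adjusted p is under 0.05. Col18a1, Nid2, Col4a2 and Lamc1 stay below 0 throughout, Col18a1 between -0.94 and -0.49, and Col4a1 crosses 0.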

How the data were processed

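Total retinal RNA of 6 mice was labelled and hybridized to Illumina Mouse-WG6 BeadChips, 1 array per mouse, and the authors checked and normalized the arrays in Bead Studio by the rank invariant method. Deposited probe intensity is linear and still holds its background. A deposited detection p-value sets the probe against negative control beads on its array. The series table equals the normalized table (0 cells differ), and no per-array column was left out.

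Probes were named from the platform annotation (34885 of 45281 with 1 gene symbol), and 34807 matched the RefSeq gene table of GRCm38.p6, with 0 symbols changed. Signals under 16 were raised to 16 (1 value) before taking log2. The probes whose detection p was under 0.05 on at least 3 arrays entered a fit with limma 3.58.1 in R 4.3.3 (lmFit, eBayes), with Benjamini-Hochberg adjustment over all of them. Each gene was read from its expressed probe of highest mean log2 signal. A "fold against the detection limit" sets the dim group at the lowest detected signal of each array, or at its own signal if higher. The fit was tested on simulated data with equal noise on every array, so the wider spread of WT replicate 1 was not imitated.

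All 41 members are named. Values on every array are given for members past the threshold, those at an unadjusted p under 0.05 without overlap, the 2 brightest of each class and those whose probes differ in sign, with some others chosen after their values were seen. Of each wider list, up to 3 genes of smallest p are named. The members, lists and tests were chosen with earlier results of these data known. The authors' SAM test was not run here. Precision is limited by the number of arrays, and p-values measure the spread between single mice of 1 line per group. Alternatives covered normalization, floor, offset, detection filter, variance model, array weights, the methods' t-test, the choice of probe, a replicate block and each array left out. Leaving Cldn5, Acta2 or Pdgfra out of its marker list was added after seeing the data.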

Additional observations from a re-analysis of the deposited data

How the results depend on the processing

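Under 25 alternatives, the log2 fold changes of Col18a1, Col4a2, Nid2, Lamc1, Lama1, Lama5, Nid1 and Hspg2 stayed negative and those of Col6a1, Sparc and Tnc positive. Of 735 values of single members, 716 kept their side of the threshold and, where they exceeded their error, their sign. Scaling to a common median of all probes, which moved the median of all genes to 0.14, gave Col4a5 0.006, Col5a1 0.031 and Itgb5 0.038, and the cause was not tested.

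At an adjusted p under 0.05, 0 members were lower with neqc, with either median scaling, with non-normalized signals, with 50 added, with no filter, with the methods' t-test after Benjamini-Hochberg adjustment and with the mean of a gene's probes, and the adjusted p of Col18a1 was 0.0743 with neqc, 0.166 and 0.978 with median scaling over detected and all probes, 0.0857 with 50 added, 0.0630 with no filter and 0.112 with the mean of probes. The count was 2, with Nid2 added, under array weights and without WT replicate 1, also with the filter recomputed, which was chosen after seeing the data, and with 1 array left out it ran between 0 and 2. No member was higher under any alternative. Over all genes, 16 lower and 5 higher calls became 56 and 16 with array weights, 47 and 17 without WT replicate 1, 8 and 1 with median scaling over detected probes, 2 and 0 with non-normalized signals, and 0 and 0 with the methods' t-test after adjustment and with median scaling over all probes. That t-test at unadjusted p under 0.05 and 1.3-fold gave 71 lower and 17 higher. The cause of these shifts was not tested.

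Class medians moved by more than the spread between arrays as follows. With median scaling over all probes they were -0.002 for collagens, -0.051 for laminins, 0.096 for other matrix genes, -0.013 for integrins and dystroglycan and 0.18 for proteases. Median scaling over detected probes gave -0.059 for other matrix genes and -0.17 for integrins and dystroglycan, and non-normalized signals 0.014 and -0.094. Array weights gave -0.047 for other matrix genes, and no filter -0.051 for laminins. With 1 array left out, other matrix genes ran between -0.20 and -0.027 and integrins and dystroglycan between -0.080 and -0.056.

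The replicate number does not pair the mice, since same-numbered arrays deviated apart (correlations -0.21, -0.15 and -0.28, with 0 of 6 arrays closest to its own number). With the replicate block 1 member, Col18a1, was lower, and all genes gave 10 lower and 2 higher. Slide could not be used as a block, as no slide is named.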
